A study of Mus musculus with 8 samples.

Results

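Solute carriers, the transporter genes whose symbols begin with Slc, were followed in mouse small intestinal organoids given CHIR99021, valproic acid (VPA) or both. Members were all genes whose symbol is Slc, a family number, a letter and a member number, without the mitochondrial Slc25 family and without Slc12a2. A member was kept where its spot was well above background in the sample dye on the 2 arrays of any 1 group, and the brightest probe stood for the gene. Of 308 such genes with a probe on the array, 69 did not reach that level, Slc38a1 had no value because of a spot marked as an outlier, and 238 of 49 families were tested among 19269 genes in all. The set was meant for carriers of the plasma membrane, but its naming rule reaches further. It held 38 genes of families that mainly serve inner membranes (Slc17, Slc18, Slc32, Slc33, Slc35 and Slc37), zinc carriers of vesicles, and 4 genes that are not transporters (Slc7a6os, Slc9a3r1, Slc9a3r2 and Slc4a1ap), so its genes are called Slc genes here. Apart from those 4, substrate groups below were set by family number, so a member can differ from its group. The dopamine transporter Slc6a3, for example, counts among amino acid carriers.

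Organoids, epithelial cultures with crypt stem cells and their offspring, were grown for 6 days in 4 conditions. These were control medium, 3 µM CHIR99021 (an inhibitor of the kinase GSK3, which activates Wnt signalling), 1 mM VPA (an inhibitor of histone deacetylases), and both at those doses. Every condition was run in 2 wild-type organoid lines that had been established independently, with 1 array per line and condition, 8 in all. Each two-colour array set the sample (Cy5) against control RNA of the same line (Cy3), with no dye swap. The control arrays therefore compared control RNA with control RNA, and a change below is the treated log2 Cy5/Cy3 ratio minus the control ratio, given ± SE with n = 2 arrays per group.

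An absorptive enterocyte carries nutrients from the gut lumen through carriers of its brush border and hands them to the blood through other carriers of its basolateral side. Most brush border carriers of sugars and amino acids use the sodium gradient that the sodium pump keeps, and several need a partner protein to reach the membrane. Other Slc families move metal ions, anions, vitamins, nucleosides and fatty acids, or load vesicles, the Golgi and the endoplasmic reticulum. Many of the brush border carriers appear as cells leave the crypt and mature, whereas carriers that feed growth, such as Slc7a5 and Slc1a5, are found in most dividing cells.

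In the sample dye, well above background covered 60.6% to 64.6% of spots by array, and 0 spots were saturated. Over Slc genes, the SD between the 2 lines had a median of 0.0461 in control ratios, and of 0.115, 0.157 and 0.179 under CHIR99021, VPA and both compounds. The epithelial genes Epcam, Cdh1, Krt8 and Krt18 were well above background on all 8 arrays, although some of them changed, as given with the other cell markers. The number of arrays limits the precision, and p-values measure only the spread between arrays of these 2 lines. The 4 groups share an estimate of that spread. Control arrays set control RNA of a line against itself, so their small spread does not measure differences between lines, yet it enters every SE. The RNA came from whole organoids, so fewer cells of a type and less RNA per cell cannot be told apart.

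The Slc genes called with CHIR99021 fell in the unblocked fit, while in the fit blocked on organoid line 2 others were higher, Slc39a6 (0.57, adjusted p = 0.0275) and Slc7a5 (0.80, adjusted p = 0.0304). Against control, 11 of 238 Slc genes fell and 0 rose (limma, adjusted p under 0.05), which is 4.62% of them, where 1.01% of all genes fell and 0.114% rose. The falls were spread over 7 substrates. They were the amino acid carrier genes Slc6a19 and Slc3a1, the sugar carrier genes Slc5a4b and Slc5a4a, the anion exchangers Slc26a6 and Slc26a3, the bicarbonate carrier Slc4a5, the sulfate carrier Slc13a1, the nucleoside carrier Slc28a3, the magnesium carrier Slc41a2 and the fatty acid carrier Slc27a4. The median change of all Slc genes was -0.04, against 0.01 for all genes tested, with most members near 0.

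VPA moved Slc genes both ways. With it, 21 of 238 rose and 11 fell, where 6.57% of all genes rose and 4.28% fell, so the share that rose (8.82%) and the share that fell (4.62%) lay near those of all genes. Metal carriers held 6 of the rises (Slc41a3, Slc39a6, Slc39a14, Slc11a2, Slc31a2 and Slc30a4) among 30 tested. The rest of the rises were spread over sugar, amino acid, ion, vitamin, nucleoside, organic ion and inner membrane carriers, with 1 to 4 in each. The 11 falls were Slc13a1, Slc28a3, Slc6a19, Slc37a4, Slc4a5, Slc26a6, Slc39a5, Slc5a4a, Slc9a8, Slc20a2 and Slc5a4b, by 1.96 to 0.56 on the log2 scale. The 3 comparisons with control share their control arrays, so their values for a gene stand side by side below without being independent.

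The combination changed the most Slc genes, with 24 higher and 29 lower of 238, where 8.41% of all genes rose and 7.08% fell. The share that fell was 12.2%, and the share that rose 10.1%. Sugar carriers gave 7 falls among 20 tested and 3 rises, amino acid carriers 5 falls and 3 rises among 40, ion carriers 5 falls and 2 rises among 35, and metal carriers 3 falls and 7 rises among 30. Of vitamin carriers, bile acid carriers and the single peptide carrier tested, Slc15a4, none passed. The peptide carrier Slc15a1 and the butyrate carrier Slc5a8 were not well above background and were not tested.

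**Figure D1:**
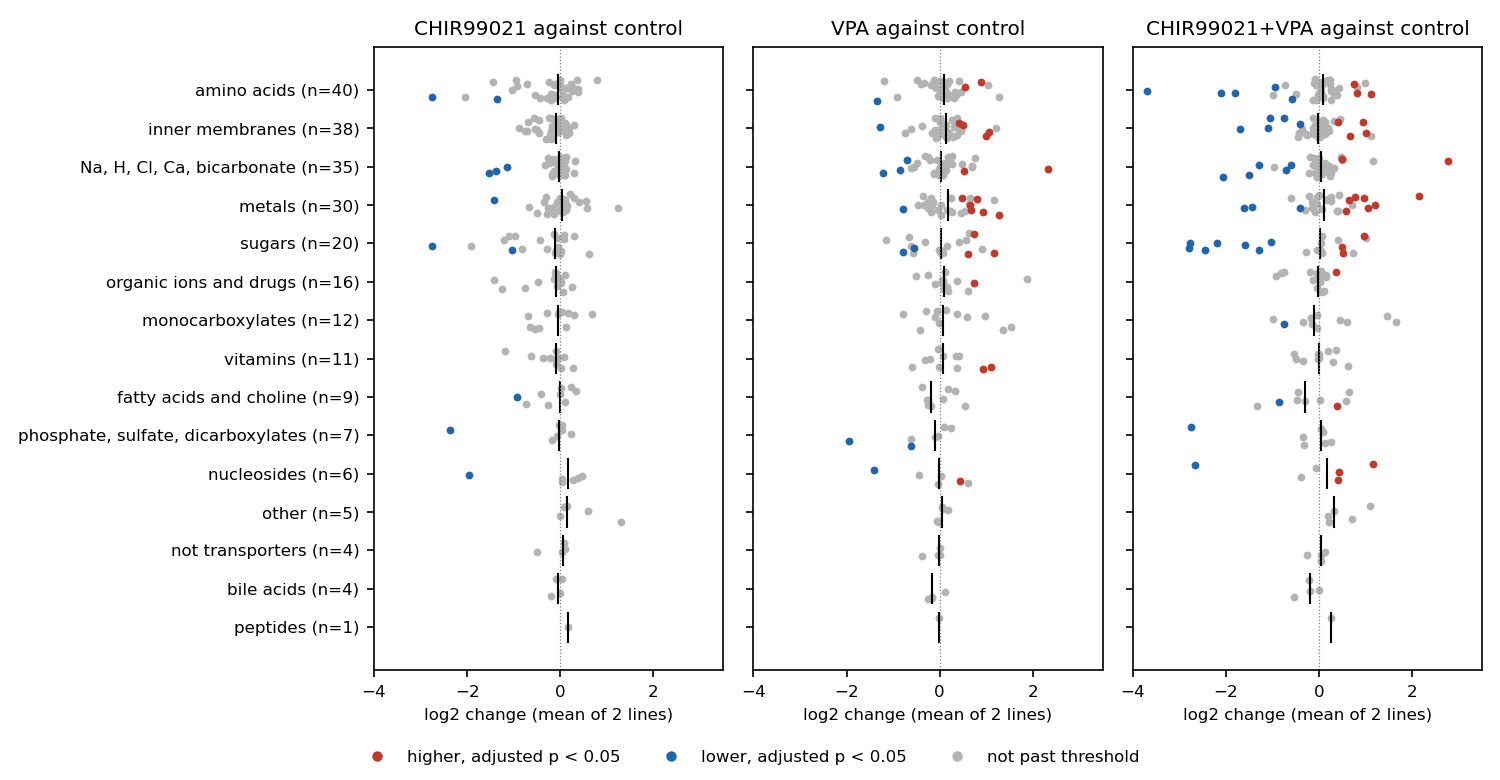
Log2 change against control of each of the 238 Slc genes (1 point per gene, mean of 2 lines), by substrate group with its number of genes, for the 3 treatments; red and blue points passed an adjusted p of 0.05, grey points did not, and the black bar is the group's median. The largest falls past the threshold stand far to the left of group medians near 0, while smaller ones lie closer to them. With CHIR99021 no point past the threshold lies to the right.

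These counts depended on the fit. When the fit took the organoid line, which is the replicate number, as a block, 26 Slc genes passed under CHIR99021 (2 higher), 61 under VPA and 80 under both. Of all 19269 genes, 554, 3742 and 4814 passed in that fit, against 216, 2090 and 2986 in the unblocked fit. When the background model was fitted on all spots, including those marked as outliers, 0 Slc genes passed under CHIR99021, 20 under VPA and 38 under both. Of all genes, 0, 1509 and 2412 passed there. With the scanner software's own ratios 4 Slc genes passed with CHIR99021 (Slc26a6, Slc28a3, Slc5a4a and Slc5a4b), and the 22 that passed with VPA were 11 higher and 11 lower. Those ratios called 36 of all genes with CHIR99021 and 1516 with VPA. Among all genes, rises made 60.6% of the calls with VPA and 76.7% of them where arrays were centred on their median instead of loess, and 54.3% and 65.3% for the combination. Without either control array, or without CHIR99021 line 2, 1 Slc gene (Slc5a4b) passed with CHIR99021, and 4 passed without CHIR99021 line 1. Without either control array 2 passed with VPA (Slc28a3 and Slc2a8) and 15 with the combination, and without either VPA array 15 passed with VPA. With the combination, 14 Slc genes passed whichever array was left out, namely Slc6a19, Slc5a4b, Slc28a3, Slc13a1, Slc4a5, Slc26a3, Slc26a6, Slc27a4, Slc37a4, Slc39a5 and Slc35a3 among the falls and Slc4a8, Slc39a6 and Slc35f6 among the rises. In all settings tried each Slc gene called against control kept its direction, except 1 gene with the combination when probes were averaged, Slc30a7.

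**Figure D2:**
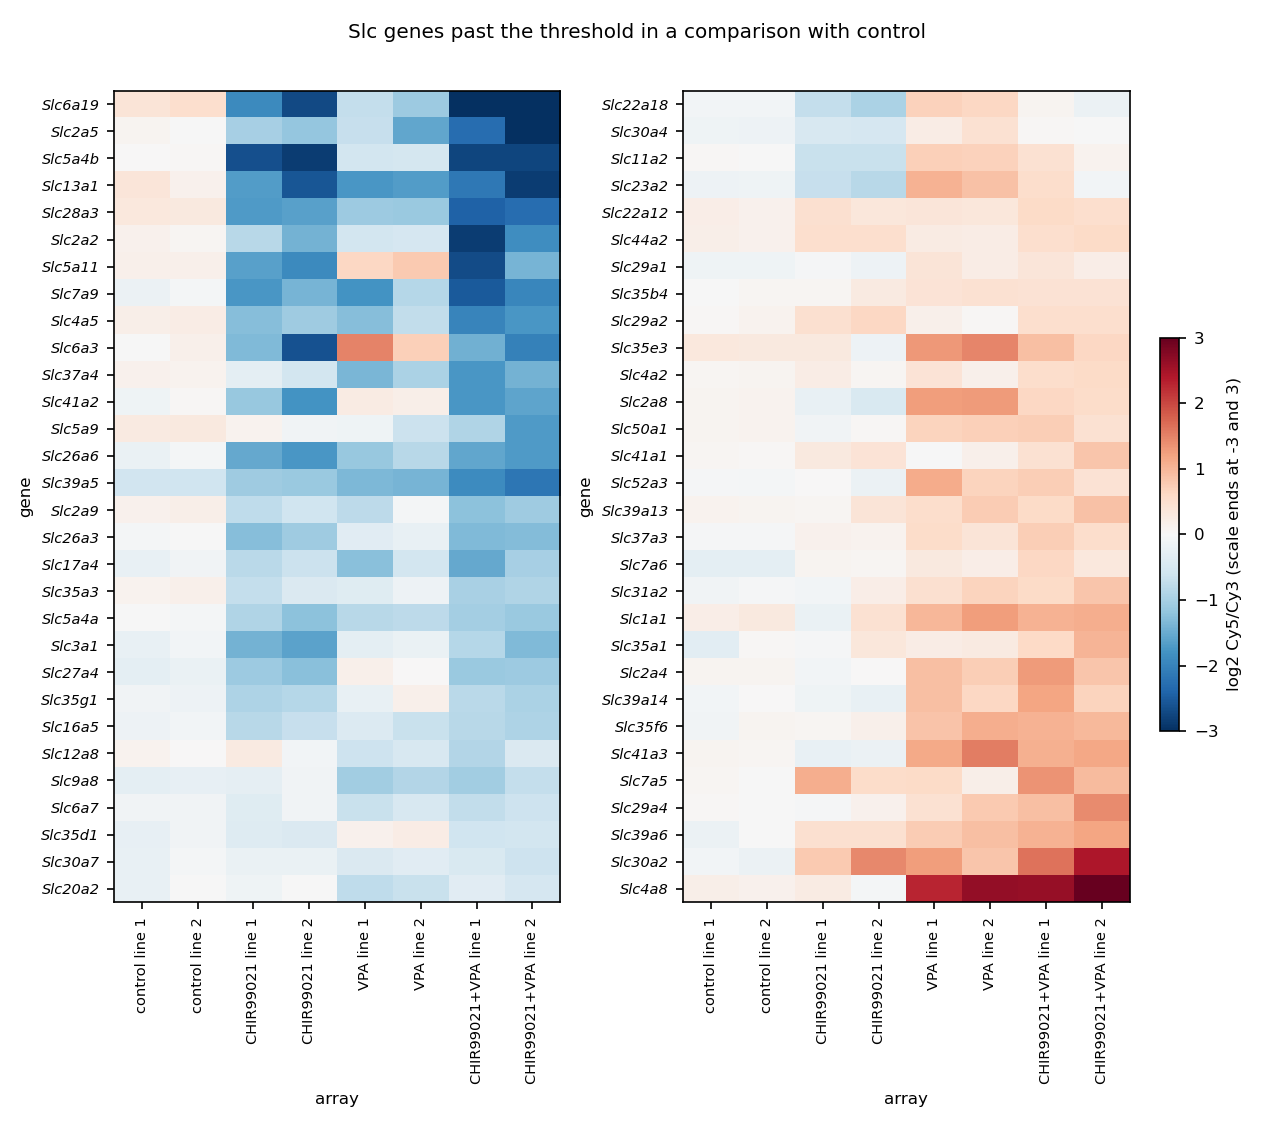
Log2 Cy5/Cy3 ratio on each of the 8 arrays (columns) for 60 Slc genes (rows) past the threshold in at least 1 comparison with control, ordered by their change with the combination; the colour scale ends at -3 and 3. The left panel holds the 30 lowest genes, which are mostly blue with CHIR99021 and with the combination, while Slc6a3 and Slc5a11 are red with VPA in both lines.

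Among amino acid carriers, Slc6a19 had the largest fitted fall with the combination. It encodes B0AT1, the main carrier of neutral amino acids in the brush border. In lines 1 and 2, always given in that order below, its log2 ratio was 0.39 and 0.51 in control, -1.92 and -2.71 under CHIR99021, -0.72 and -1.08 under VPA and -3.30 and -3.19 with both. No treated array overlapped the control arrays, and both combination arrays lay below every other. Slc6a19 fell by 2.76 ± 0.25 with CHIR99021 (adjusted p = 0.0143), fell by 1.35 ± 0.25 with VPA (adjusted p = 0.0236) and fell by 3.70 ± 0.25 with both (adjusted p = 0.000758), where its spot was well above background on 1 of the 2 arrays.

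The paired subunits of the brush border cystine and dibasic amino acid carrier, Slc3a1 (the heavy subunit rBAT) and Slc7a9 (the light subunit), were both low with the combination. Slc3a1 had ratios of -0.22 and -0.08 in control, -1.41 and -1.60 under CHIR99021, -0.28 and -0.20 under VPA and -0.87 and -1.32 with both. It was lowest with CHIR99021 alone, and 1 VPA array lay between the control arrays and the other just below them. Slc3a1 fell by 1.35 ± 0.16 with CHIR99021 (adjusted p = 0.0244) and by 0.94 ± 0.16 with both (adjusted p = 0.0117). Slc7a9 had ratios of -0.18 and -0.06 in control, -1.74 and -1.41 under CHIR99021, -1.80 and -0.86 under VPA and -2.51 and -1.95 with both. All of its treated arrays lay below control, with the lines far apart under VPA. Slc7a9 fell by 2.10 ± 0.33 with both (adjusted p = 0.00859), while its changes of -1.45 ± 0.33 with CHIR99021 (adjusted p = 0.118) and -1.20 ± 0.33 with VPA (adjusted p = 0.0638) passed when blocked on line as replicate (adjusted p = 0.0191 and 0.00899, respectively).

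Slc6a3, known as the dopamine transporter of neurons, read in opposite directions with the single compounds. Its ratios were -0.02 and 0.15 in control, -1.33 and -2.61 under CHIR99021, 1.49 and 0.71 under VPA and -1.45 and -2.03 with both. The CHIR99021 and combination arrays overlapped each other and lay below control, and both VPA arrays lay above control. The fall of 1.80 ± 0.45 with both passed (adjusted p = 0.0406), while the change of -2.04 ± 0.45 with CHIR99021 did not (adjusted p = 0.111, 0.0257 blocked on line as replicate). Slc6a7, a proline carrier known from brain, fell by 0.58 ± 0.12 with both (adjusted p = 0.0235).

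The 3 amino acid carriers that rose with the combination were Slc7a5, Slc1a1 and Slc7a6. Slc7a5, the light subunit of LAT1, which imports leucine and other essential amino acids, had ratios of 0.06 and 0.00 in control, 1.10 and 0.55 under CHIR99021, 0.57 and 0.17 under VPA and 1.35 and 0.94 with both. Every treated array lay above control, and line 1 was higher than line 2 in each treatment. Slc7a5 rose by 1.12 ± 0.23 with both (adjusted p = 0.0226), and read 0.80 ± 0.23 with CHIR99021 (adjusted p = 0.213, 0.0304 blocked on line as replicate). Its heavy subunit gene Slc3a2 read between -0.25 and 0.03 on all arrays and did not pass in any comparison. Slc1a1, a glutamate carrier of the intestine, rose by 0.88 ± 0.21 with VPA (adjusted p = 0.0451) and by 0.82 ± 0.21 with both (adjusted p = 0.0451), but read -0.11 ± 0.21 with CHIR99021. Slc7a6, a carrier of the y+L system, rose by 0.54 ± 0.12 with VPA and by 0.75 ± 0.12 with both. The glutamine carrier Slc1a5 read 0.81 ± 0.22 with both (adjusted p = 0.0543, 0.00782 blocked on line as replicate). The basolateral carriers Slc7a7 and Slc7a8 read -0.71 ± 0.22 and -0.92 ± 0.46 with CHIR99021 and did not pass in any comparison with control.

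Sugar carriers held the largest group of falls with the combination, in the sodium-coupled Slc5 family and the facilitative Slc2 family. Of 9 Slc5 genes tested, 4 fell and 0 rose, and of 7 Slc2 genes 3 fell and 2 rose. Slc5a4b, a mouse member of the sodium and glucose carrier family, read almost alike in the 2 lines. Its ratios were 0.01 and 0.03 in control, -2.64 and -2.84 under CHIR99021, -0.55 and -0.53 under VPA and -2.75 and -2.76 with both. The CHIR99021 and combination arrays lay close together, and the VPA arrays lay between them and control. Slc5a4b fell by 2.76 ± 0.10 with CHIR99021 (adjusted p = 0.000565), by 0.56 ± 0.10 with VPA (adjusted p = 0.0178) and fell by 2.78 ± 0.10 with both (adjusted p = 9.08e-05). Its neighbour in sequence Slc5a4a fell by 1.04 ± 0.13 with CHIR99021, 0.78 ± 0.13 with VPA and 1.04 ± 0.13 with both. The pair are close paralogs, so each probe may read some RNA of the other gene.

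Slc5a11, an inositol carrier, also read in opposite directions with the single compounds. Its ratios were 0.15 and 0.15 in control, -1.63 and -1.91 under CHIR99021, 0.62 and 0.80 under VPA and -2.69 and -1.39 with both. Both VPA arrays lay above control, while the combination spread on either side of CHIR99021. Slc5a11 fell by 2.19 ± 0.38 with both (adjusted p = 0.0116), and read -1.92 ± 0.38 with CHIR99021 (adjusted p = 0.0818, 0.0437 blocked on line as replicate). Slc5a9, a carrier of mannose and fructose, had ratios of 0.27 and 0.30 in control, 0.11 and -0.10 under CHIR99021, -0.13 and -0.64 under VPA and -0.89 and -1.70 with both. It fell by 1.58 ± 0.28 with both (adjusted p = 0.0132) and lay below control on every treated array.

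The brush border fructose carrier Slc2a5 (GLUT5) and the basolateral glucose and fructose carrier Slc2a2 (GLUT2) were lowest with both compounds. Slc2a5 had ratios of 0.07 and -0.01 in control, -0.996 and -1.15 under CHIR99021, -0.69 and -1.56 under VPA and -2.28 and -3.26 with both. Each single compound gave intermediate values, and the combination arrays lay below all others. Slc2a5 fell by 2.80 ± 0.37 with both (adjusted p = 0.00516), against -1.10 ± 0.37 with CHIR99021 and -1.16 ± 0.37 with VPA, of which the second passed when blocked on line as replicate (adjusted p = 0.0209). Slc2a2 had ratios of 0.12 and 0.05 in control, -0.82 and -1.42 under CHIR99021, -0.54 and -0.50 under VPA and -2.85 and -1.87 with both. It fell by 2.45 ± 0.32 with both (adjusted p = 0.00514), and its second probe read -1.61. Slc2a9, a urate carrier, fell by 1.30 ± 0.22 with both, where its 3 other probes read -1.05, -0.49 and -0.04.

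**Figure D3:**
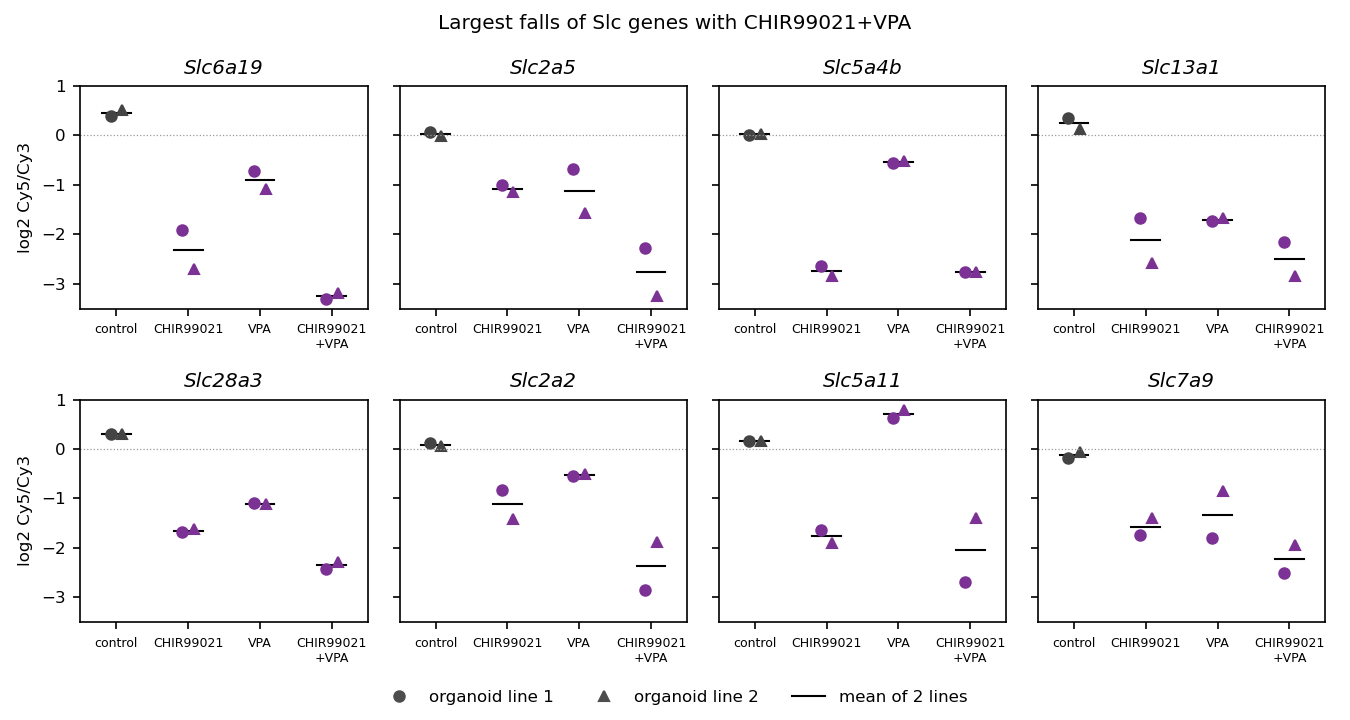
Log2 Cy5/Cy3 ratio on each array (circles line 1, triangles line 2, bars the mean of 2 lines) in the 4 conditions, for the 8 Slc genes with the largest falls with the combination. In all 8 genes both combination arrays lie below both control arrays, and in Slc5a11 the VPA arrays lie above control.

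Not all sugar carriers followed. Slc5a1 (SGLT1), the main glucose carrier of the brush border, had ratios of -0.20 and -0.11 in control, -0.89 and -1.37 under CHIR99021, -0.05 and 0.06 under VPA and -0.25 and -0.64 with both. It was low with CHIR99021 alone (-0.98 ± 0.19, adjusted p = 0.0802, 0.0401 blocked on line as replicate), and did not pass with both (-0.29 ± 0.19, adjusted p = 0.37). Slc2a8 (GLUT8), a sugar carrier of vesicles, had ratios of 0.08 and 0.11 in control, -0.23 and -0.46 under CHIR99021, 1.26 and 1.27 under VPA and 0.63 and 0.56 with both. The combination lay between the VPA and the control arrays. Slc2a8 rose by 1.17 ± 0.10 with VPA (adjusted p = 0.00253) and by 0.50 ± 0.10 with both, and its second probe read 0.47 with VPA. Slc2a4 (GLUT4), the insulin-responsive carrier of muscle and fat, rose by 0.73 ± 0.16 with VPA and by 0.96 ± 0.16 with both. Slc50a1, the mammalian member of the SWEET sugar carriers, rose by 0.61 ± 0.12 and 0.52 ± 0.12 in the same comparisons.

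Slc2a1 (GLUT1), the glucose carrier of most dividing cells, was high in line 1 and near 0 in line 2. Its ratios were 0.03 and 0.12 in control, 1.41 and -0.03 under CHIR99021, 1.88 and 0.11 under VPA and 2.14 and 0.01 with both. It passed in no comparison, and its change with both was 1.00 ± 0.86 (adjusted p = 0.507). The lactate exporter Slc16a3 (MCT4) read the same way, with 0.25 and 0.11 in control, 1.85 and -0.11 under CHIR99021, 2.72 and 0.34 under VPA and 2.92 and 0.36 with both. Slc16a3 and Slc2a1 were among the Slc genes whose lines differed the most with the combination, and Slc16a3 was named after its values were seen. Of the 12 monocarboxylate carriers of the Slc16 family, only Slc16a5 passed against control, which fell by 0.75 ± 0.11 with both. The butyrate and lactate carrier Slc16a1 (MCT1) read 0.59 ± 0.25 with both (adjusted p = 0.171, 0.0328 blocked on line as replicate).

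The chloride and bicarbonate exchangers of the brush border fell with CHIR99021 with or without VPA. Slc26a3, also called DRA, had ratios of -0.06 and -0.01 in control, -1.28 and -1.07 under CHIR99021, -0.34 and -0.21 under VPA and -1.33 and -1.29 with both. It fell by 1.14 ± 0.10 with CHIR99021 (adjusted p = 0.0143) and by 1.28 ± 0.10 with both (adjusted p = 0.00126), and read -0.24 with VPA. Slc26a6, which also carries oxalate, had ratios of -0.19 and -0.06 in control, -1.54 and -1.76 under CHIR99021, -1.13 and -0.84 under VPA and -1.57 and -1.70 with both. It fell in all 3, by 1.52 ± 0.14, 0.86 ± 0.14 and 1.51 ± 0.14, and the combination arrays lay within the range of the CHIR99021 arrays. Of the other 5 Slc26 genes tested, none passed.

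Among bicarbonate carriers, Slc4a5 fell and Slc4a8 rose. Slc4a5, a sodium bicarbonate cotransporter, had ratios of 0.19 and 0.21 in control, -1.29 and -1.06 under CHIR99021, -1.29 and -0.74 under VPA and -1.97 and -1.75 with both, and fell in each, where it fell by 2.06 ± 0.19 with the combination. Its second probe read -0.10, -0.14 and -0.19 in these comparisons, so its fall rests on the brightest probe. Slc4a8, a sodium-driven chloride and bicarbonate exchanger known mainly from neurons, had ratios of 0.17 and 0.12 in control, 0.25 and -0.06 under CHIR99021, 2.29 and 2.64 under VPA and 2.62 and 3.20 with both. All 4 arrays with VPA lay far above the rest, and the CHIR99021 arrays enclosed those of control. Slc4a8 rose by 2.32 ± 0.22 with VPA (adjusted p = 0.0032) and by 2.77 ± 0.22, 6.81-fold, with both (adjusted p = 0.00115), the largest rise of an Slc gene in either. Its other probes read lower values, 0.47 and 0.49 with VPA and 0.59 and 0.74 with both. The chloride and bicarbonate exchanger Slc4a2 rose by 0.49 ± 0.12 with both.

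Among sodium and proton exchangers, Slc9a8 (NHE8) fell by 0.69 ± 0.14 with VPA (adjusted p = 0.0283) and by 0.61 ± 0.14 with both (adjusted p = 0.0309). Slc9a3 (NHE3), the main sodium absorber of the brush border, was dim: its spot was well above background on both control arrays, 1 VPA array and 0 of the other arrays. Its ratios lay between 0.01 and 0.26 on all 8. Slc9a2 (NHE2) read between -0.15 and 0.26 in the 3 comparisons with control. Slc12a8, a member of the cation and chloride carrier family, fell by 0.71 ± 0.18 with both (adjusted p = 0.0432).

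Slc13a1, the sodium sulfate carrier, and Slc28a3, a sodium-coupled carrier of purine and pyrimidine nucleosides, fell with each treatment. Slc13a1 had ratios of 0.36 and 0.14 in control, -1.68 and -2.57 under CHIR99021, -1.74 and -1.68 under VPA and -2.15 and -2.85 with both. It fell by 2.37 ± 0.33 with CHIR99021 (adjusted p = 0.0327), where 1 of the 2 arrays was well above background, and by 1.96 ± 0.33 with VPA (adjusted p = 0.0165). With both it was not well above background on either array, so the fall was at least 6.13-fold (adjusted p = 0.0037), reckoned from the control mean against the lowest signal that counted as above background on each array. Slc28a3 had ratios of 0.31 and 0.30 in control, -1.69 and -1.62 under CHIR99021, -1.10 and -1.12 under VPA and -2.43 and -2.28 with both. The 4 groups did not overlap, in the order control, VPA, CHIR99021, both. Slc28a3 fell by 1.96 ± 0.09 with CHIR99021 (adjusted p = 0.00182), fell by 1.42 ± 0.09 with VPA (adjusted p = 0.000997) and fell by 2.66 ± 0.09 with both (adjusted p = 9.08e-05), and its second probe, well above background on 1 array, read -0.05, -0.13 and -0.09.

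Of the other nucleoside carriers 3 rose with the combination. Slc29a4, which carries monoamines and adenosine, had ratios of 0.03 and -0.02 in control, -0.02 and 0.13 under CHIR99021, 0.47 and 0.78 under VPA and 0.91 and 1.41 with both. It rose by 1.16 ± 0.18 with both (adjusted p = 0.00929), and its VPA arrays lay between control and the combination (0.62 ± 0.18, adjusted p = 0.0852, 0.0267 blocked on line as replicate). The equilibrative carriers Slc29a1 and Slc29a2 rose by 0.41 ± 0.11 and 0.43 ± 0.09 with both, and Slc29a1 by 0.43 ± 0.11 with VPA. Slc28a2, the purine nucleoside carrier of the gut, read 0.39 ± 0.30 with CHIR99021 and -0.39 ± 0.30 with both. Of phosphate carriers, Slc20a2 fell by 0.61 ± 0.11 with VPA (adjusted p = 0.0236), while Slc34a2 and Slc20a1, which take up phosphate, did not pass. Slc34a2 read from 0.23 to 0.25 in the 3 comparisons, and Slc20a1 read -0.62 ± 0.35 with VPA, with -0.24 in line 1 and -1.002 in line 2, where its second probe read 0.13.

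Of 30 metal carriers, 20% rose and 3.33% fell with VPA, where 6.57% of all genes rose and 4.28% fell, and 23.3% rose and 10% fell with the combination, where 8.41% of all genes rose and 7.08% fell. These shares are a description with no test. Slc30a2 (ZnT2), which loads zinc into vesicles, had ratios of -0.08 and -0.17 in control, 0.79 and 1.45 under CHIR99021, 1.25 and 0.83 under VPA and 1.63 and 2.42 with both. It rose by 2.15 ± 0.32 with both (adjusted p = 0.00729), and read 1.25 ± 0.32 with CHIR99021 and 1.17 ± 0.32 with VPA, of which the second passed when blocked on line as replicate (adjusted p = 0.0384). The zinc importer Slc39a6 (ZIP6) had ratios of -0.19 and 0.00 in control, 0.47 and 0.47 under CHIR99021, 0.76 and 0.91 under VPA and 1.04 and 1.19 with both. Its groups did not overlap, in the order control, CHIR99021, VPA, both. Slc39a6 rose by 0.93 ± 0.11 with VPA and 1.21 ± 0.11 with both, and its 0.57 ± 0.11 with CHIR99021 passed when blocked on line as replicate (adjusted p = 0.0275). Slc39a14 (ZIP14), an importer of zinc and iron, rose by 0.79 ± 0.19 and 0.97 ± 0.19, and Slc39a13 (ZIP13) by 0.63 ± 0.16 with both. Slc39a5 (ZIP5), a basolateral zinc importer of the gut, went the other way, with ratios of -0.58 and -0.60 in control, -1.07 and -1.11 under CHIR99021, -1.35 and -1.40 under VPA and -1.89 and -2.18 with both. Slc39a5 fell by 0.78 ± 0.11 with VPA and by 1.44 ± 0.11 with both.

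The 3 members of the magnesium carrier family Slc41 took different courses. Slc41a2 had ratios of -0.13 and 0.04 in control, -1.14 and -1.79 under CHIR99021, 0.24 and 0.17 under VPA and -1.74 and -1.59 with both, and fell by 1.42 ± 0.21 with CHIR99021 and by 1.62 ± 0.21 with both. Slc41a3 had ratios of 0.08 and 0.05 in control, -0.22 and -0.19 under CHIR99021, 1.15 and 1.53 under VPA and 1.07 and 1.17 with both, and rose by 1.27 ± 0.13 with VPA and by 1.05 ± 0.13 with both. Slc41a2 was thus low on the 4 arrays with CHIR99021, and Slc41a3 high on the 4 arrays with VPA. Slc41a1 rose by 0.59 ± 0.14 with both.

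Among iron and copper carriers, Slc11a2 (DMT1), which takes up ferrous iron at the brush border, had ratios of 0.04 and -0.01 in control, -0.66 and -0.66 under CHIR99021, 0.70 and 0.68 under VPA and 0.45 and 0.09 with both. It rose by 0.68 ± 0.13 with VPA (adjusted p = 0.0223), where its other probes read -0.66 and 0.10, so its probes disagree in direction. Its -0.67 ± 0.13 with CHIR99021 passed when blocked on line as replicate (adjusted p = 0.0356), where its other probes read 0.10 and 0.04. The copper carrier Slc31a2 rose by 0.64 ± 0.14 with VPA and by 0.76 ± 0.14 with both. The iron exporter Slc40a1 (ferroportin) changed in opposite directions in lines 1 and 2, by 0.81 and -0.92 under CHIR99021, 0.04 and -0.73 under VPA and 1.07 and -0.54 with both. The brush border zinc importer Slc39a4 (ZIP4) read 0.54 ± 0.40 with CHIR99021 and -0.47 ± 0.40 with VPA and did not pass.

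**Figure D4:**
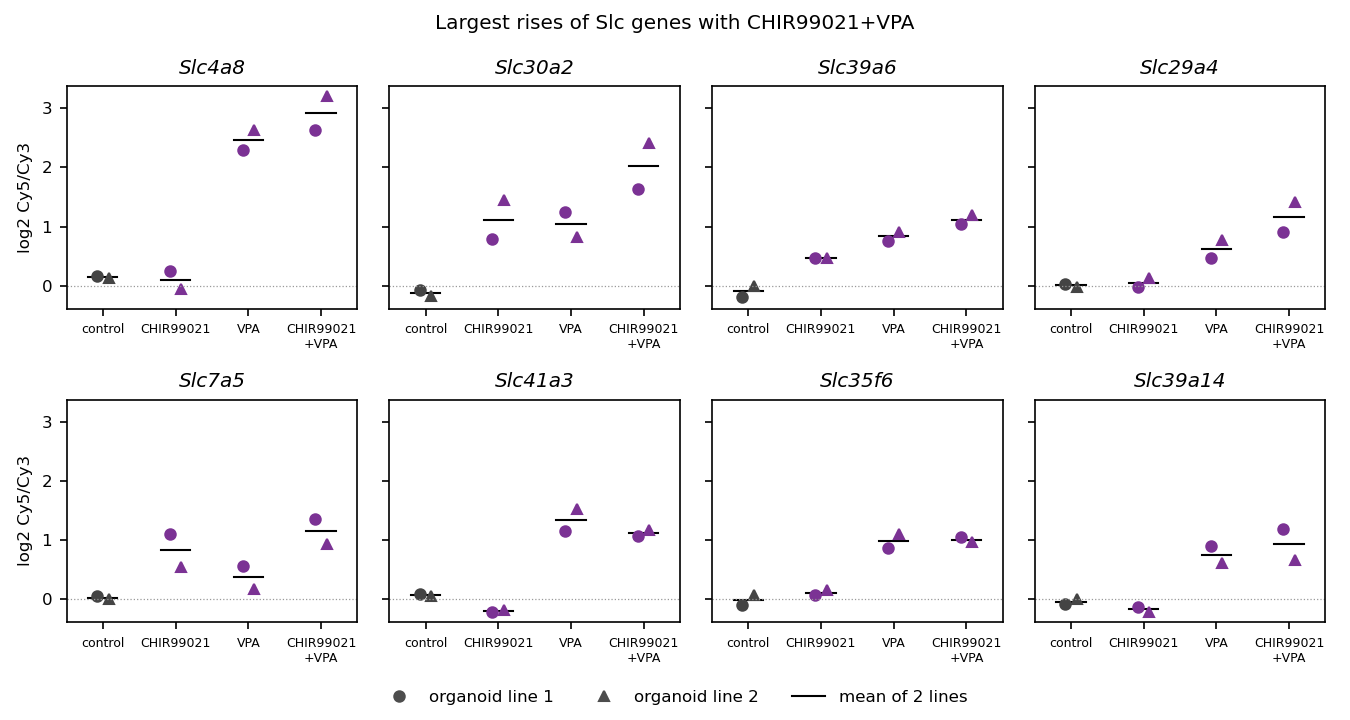
Log2 Cy5/Cy3 ratio on each array (circles line 1, triangles line 2, bars the mean of 2 lines) in the 4 conditions, for the 8 Slc genes with the largest rises with the combination. Slc4a8, Slc41a3, Slc35f6 and Slc39a14 are high on the 4 arrays with VPA and near control with CHIR99021, while Slc30a2 and Slc39a6 lie above control in all 3 treatments.

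Of vitamin carriers, 2 of 11 rose with VPA. Slc23a2, a vitamin C carrier, had ratios of -0.15 and -0.13 in control, -0.70 and -0.83 under CHIR99021, 1.05 and 0.87 under VPA and 0.52 and -0.09 with both, and rose by 1.10 ± 0.19 (adjusted p = 0.0189). Slc52a3, the riboflavin carrier of the gut, rose by 0.93 ± 0.17 (adjusted p = 0.0227), and its 0.62 ± 0.17 with both passed when blocked on line as replicate (adjusted p = 0.0114). The folate carrier Slc46a1 read 0.08, -0.20 and -0.34 in the 3 comparisons with control. The long-chain fatty acid carrier Slc27a4 (FATP4) had ratios of -0.30 and -0.20 in control, -1.09 and -1.25 under CHIR99021, 0.16 and 0.00 under VPA and -1.12 and -1.10 with both. It fell by 0.92 ± 0.10 with CHIR99021 (adjusted p = 0.0212) and by 0.86 ± 0.10 with both (adjusted p = 0.00372), and its VPA arrays lay above control. The second probe of Slc27a4 read -0.42 with CHIR99021 and -0.34 with both. Its call with CHIR99021 did not hold with the mean of its probes. The choline carrier Slc44a2 rose by 0.38 ± 0.08 with both.

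Of 16 carriers of organic ions and drugs, Slc22a18 rose by 0.74 ± 0.13 with VPA (adjusted p = 0.0183) and Slc22a12, a urate carrier, by 0.36 ± 0.09 with both (adjusted p = 0.0403). Slc22a18 read -0.08 and -0.09 in control, -0.71 and -0.95 under CHIR99021, 0.69 and 0.62 under VPA and 0.09 and -0.18 with both, so the combination arrays lay about control. Slc10a2, the bile acid importer of the ileum, read -0.54 ± 0.15 with both (adjusted p = 0.0569, 0.0146 blocked on line as replicate). Of its arrays with the combination, 1 was well above background.

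Genes of the families grouped under inner membranes gave 4 rises and 1 fall with VPA and 4 rises and 5 falls with the combination, among 38. In either direction, 13.2% of them passed with VPA and 23.7% with the combination, against 10.8% and 15.5% of all genes. Slc37a4, the glucose-6-phosphate carrier of the endoplasmic reticulum that serves glucose release, had ratios of 0.13 and 0.11 in control, -0.30 and -0.56 under CHIR99021, -1.36 and -0.96 under VPA and -1.74 and -1.41 with both. It fell by 1.28 ± 0.18 with VPA (adjusted p = 0.00921) and by 1.69 ± 0.18 with both (adjusted p = 0.00231). With both, Slc17a4 fell by 1.11 ± 0.26, the UDP-N-acetylglucosamine carrier Slc35a3 by 1.06 ± 0.13 (its second probe read -0.30), Slc35g1 by 0.75 ± 0.14 and Slc35d1 by 0.41 ± 0.09. Slc35a1, which carries the sialic acid donor into the Golgi, rose by 0.94 ± 0.20 with both. Slc35f6 rose by 0.99 ± 0.12 with VPA and 1.01 ± 0.12 with both, and Slc35e3 by 1.06 ± 0.17 with VPA. Slc37a3 rose by 0.51 ± 0.11 and 0.66 ± 0.11, and Slc35b4 by 0.41 ± 0.10 in each. The other probes of Slc35b4 read 0.22 and 0.17 with VPA and 0.19 and 0.24 with both. Neither Slc35b4 call held with the mean of its probes. Slc30a7, a zinc carrier of the Golgi, fell by 0.40 ± 0.10 with both, where its other probes, well above background on all 8 arrays, read 0.27 and 0.46, so 2 of its 3 probes go against the fall.

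Promoters were read for the 184 tested Slc genes that the RefSeq promoter table lists (build GRCm38.p6), over the 250 bases before the first listed start, and 42 of them have more than 1 start. CpG pairs, the sites of DNA methylation, were counted as a feature that the naming rule and the calls had not used. Tested Slc genes held a median of 12.5 CpG pairs and 20.1% had fewer than 5, where all 27025 promoters of the table had a median of 6 and 44.5% had fewer than 5. The promoters of the whole table had no filter on signal, which the Slc genes had passed. The 2 sets thus differ in more than the gene family, and the part of that filter was not tested. The 20 Slc genes that rose with the combination had a median of 15, and 0 of them had fewer than 5. The 24 that fell had a median of 6.5, and 9 had fewer than 5. The 10 that fell with CHIR99021 had a median of 6, the 15 that rose with VPA 13, the 9 that fell with VPA 6, and the 136 without a call against control 12. These are descriptions with no test, and the groups of the 3 comparisons share genes. The letters of the motif TATAAA were found on either strand in 4 of the 10 promoters that fell with CHIR99021, in 8.15% of Slc promoters and in 13% of all promoters. They stood in 2 of the 9 that fell with VPA and in 4 of the 24 that fell with the combination. Of promoters that rose, 0 of 15 held them with VPA and 2 of 20 with the combination. The letters GGGCGG stood in 53.3% of Slc promoters and 32.9% of all, and CTTTGAT, a core of the TCF/LEF site, in 3.26% and 3.23%. GTTAAT, a half-site of HNF1, stood in 5.43% and 6.52%. The 6 promoters below show both ends, the first 3 from genes that fell with the combination and the last 3 from genes that rose, written 5′ to 3′ on the gene's strand with CpG pairs in capitals.
Slc6a19, chr13:73692637-73692886, minus strand: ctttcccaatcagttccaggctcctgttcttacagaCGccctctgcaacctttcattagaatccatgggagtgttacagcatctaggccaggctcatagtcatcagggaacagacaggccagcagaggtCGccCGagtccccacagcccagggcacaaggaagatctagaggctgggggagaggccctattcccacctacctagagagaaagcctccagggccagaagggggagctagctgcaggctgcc
Slc5a4b, chr10:76111019-76111268, minus strand: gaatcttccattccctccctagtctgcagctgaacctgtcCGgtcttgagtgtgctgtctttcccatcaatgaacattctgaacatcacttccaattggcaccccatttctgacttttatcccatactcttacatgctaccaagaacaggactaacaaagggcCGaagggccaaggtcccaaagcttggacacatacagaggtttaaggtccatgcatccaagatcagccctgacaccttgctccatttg
Slc2a5, chr4:150119094-150119343, plus strand: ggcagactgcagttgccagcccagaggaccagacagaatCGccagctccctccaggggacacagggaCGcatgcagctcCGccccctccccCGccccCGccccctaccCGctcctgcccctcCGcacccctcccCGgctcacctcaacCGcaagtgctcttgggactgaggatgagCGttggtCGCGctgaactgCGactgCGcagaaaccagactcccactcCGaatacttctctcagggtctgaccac
Slc4a8, chr15:100761497-100761746, plus strand: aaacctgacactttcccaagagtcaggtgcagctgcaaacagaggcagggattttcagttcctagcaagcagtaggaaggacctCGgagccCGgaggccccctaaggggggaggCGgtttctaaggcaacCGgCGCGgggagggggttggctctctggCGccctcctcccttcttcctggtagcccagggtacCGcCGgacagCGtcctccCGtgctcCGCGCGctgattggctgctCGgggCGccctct
Slc30a2, chr4:134343216-134343465, plus strand: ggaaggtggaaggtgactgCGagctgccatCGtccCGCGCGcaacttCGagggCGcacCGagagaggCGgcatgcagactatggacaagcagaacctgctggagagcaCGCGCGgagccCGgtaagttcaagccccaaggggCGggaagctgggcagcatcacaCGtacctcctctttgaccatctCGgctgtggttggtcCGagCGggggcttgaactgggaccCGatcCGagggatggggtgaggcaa
Slc29a4, chr5:142701851-142702100, plus strand: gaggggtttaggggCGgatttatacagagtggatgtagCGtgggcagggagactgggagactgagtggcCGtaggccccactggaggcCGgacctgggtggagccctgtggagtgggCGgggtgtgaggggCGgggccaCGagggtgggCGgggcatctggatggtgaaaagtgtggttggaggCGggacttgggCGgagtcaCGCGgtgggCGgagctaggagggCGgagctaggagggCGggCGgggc
Slc6a19 and Slc5a4b have 3 and 2 CpG pairs in these windows, whereas Slc2a5, which also fell, has 15, so the difference in medians does not hold gene by gene. Slc4a8, Slc30a2 and Slc29a4 have 16, 20 and 16.

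**Figure D5:**
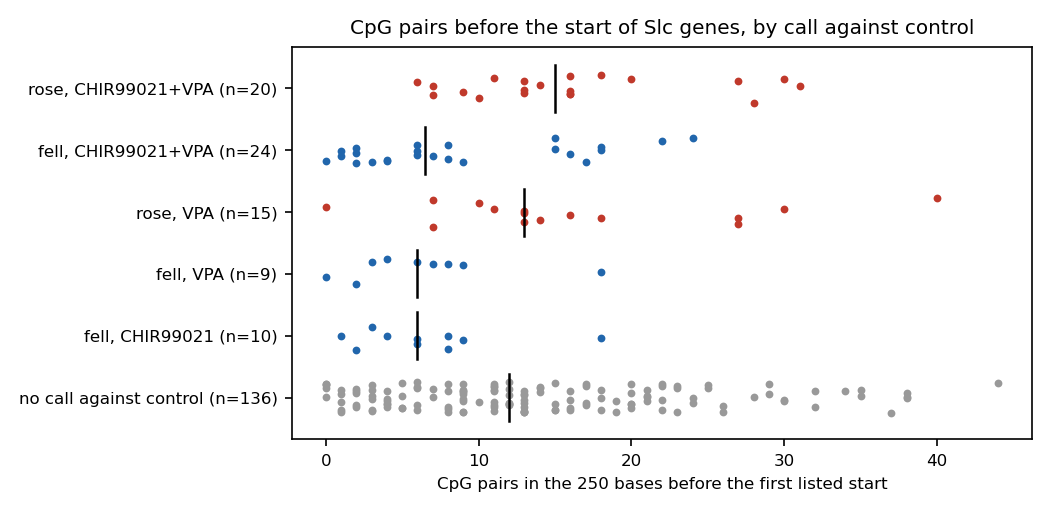
CpG pairs in the 250 bases before the first listed start (x axis) of each Slc gene with a listed promoter (1 point per gene), by its call against control, with the number of genes and the median as a bar. Genes that rose with the combination lie at 6 or more with a median of 15, while those that fell range from 0 to 24 with a median of 6.5.

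Adding VPA to CHIR99021 raised 23 Slc genes and lowered 8 against CHIR99021 alone, where 6.21% of all genes rose and 3.81% fell. Slc4a8 rose by 2.82 ± 0.22, Slc41a3 by 1.32 ± 0.13, Slc29a4 by 1.11 ± 0.18, Slc39a14 by 1.10 ± 0.19 and Slc2a4 by 1.09 ± 0.16. The falls were led by Slc2a5 (1.70 ± 0.37), Slc5a9 (1.30 ± 0.28), Slc37a4 (1.14 ± 0.18), Slc39a5 (0.94 ± 0.11) and Slc12a8 (0.74 ± 0.18). Slc6a19 read -0.93 ± 0.25 (adjusted p = 0.0694, 0.0354 blocked on line as replicate). Blocked on line as replicate, 56 Slc genes passed (3407 of all genes). With the background model fitted on all spots 20 Slc genes passed, 12 higher and 8 lower (1629 of all genes). The software's ratios gave 14 higher and 8 lower (1343 of all genes). With only the 2 groups in the fit, 289 of all genes passed, and 3 Slc genes (Slc4a8, Slc41a3 and Slc35f6). Without CHIR99021 line 1 or 2 the counts were 3 and 5, without either control array 10, and without line 1 of the combination 14.

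Adding CHIR99021 to VPA lowered 10 Slc genes and raised 0 against VPA alone, where 1.03% of all genes fell and 0.0882% rose. Slc6a3 fell by 2.84 ± 0.45, Slc5a11 fell by 2.75 ± 0.38, Slc6a19 fell by 2.35 ± 0.25, Slc5a4b fell by 2.22 ± 0.10 and Slc41a2 fell by 1.88 ± 0.21, followed by Slc28a3, Slc27a4, Slc26a3, Slc35d1 and Slc2a8. Slc6a3, Slc5a11, Slc41a2 and Slc27a4 were above control on both VPA arrays and below it on both combination arrays. Blocked on line as replicate, 23 Slc genes passed (609 of all genes), of which Slc7a5 was higher (0.78, adjusted p = 0.033). With the background model fitted on all spots 28 of all genes passed, and with only the 2 groups in the fit 0. Of Slc genes, 0 passed in either. Without either control array 1 passed (Slc5a4b), without VPA line 2 3 passed, and with the software's ratios 3.

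The interaction asks whether the combination differs from the sum of the single changes on the log2 scale. Of 238 Slc genes and of all 19269 genes, 0 passed (limma, adjusted p under 0.05), and 11 and 510 had an unadjusted p under 0.05. Each is a smaller share than 0.05, the share that this cut-off would pass with no interaction if arrays deviated independently. Same-numbered arrays deviated together, so these shares do not show that interactions are absent. Slc28a3 read 0.72 ± 0.13 and Slc26a6 0.87 ± 0.20, each with an adjusted p of 1, so the fall of each with both was smaller than the sum of its single falls by an amount that did not pass. No interaction is given for Slc13a1, which was not well above background on either combination array. Slc6a19 read 0.42 ± 0.36 and Slc2a5 -0.54 ± 0.52.

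Genes that work with these carriers were followed as a list, of which 14 of 18 were tested. Pdzk1, the scaffold that anchors brush border carriers, had ratios of -0.17 and -0.08 in control, -1.53 and -1.70 under CHIR99021, -2.23 and -2.27 under VPA and -3.03 and -3.05 with both. It fell by 1.49 ± 0.10 with CHIR99021, fell by 2.12 ± 0.10 with VPA and fell by 2.91 ± 0.10 with both, with no overlap between groups. Slc51a and Slc51b encode the subunits of the basolateral bile acid exporter, and their symbols lack the final number that the naming rule asks for. Slc51a fell by 1.77 ± 0.12 with CHIR99021, 0.49 ± 0.12 with VPA and 2.62 ± 0.12 with both, and Slc51b by 0.99 ± 0.23 with VPA and 1.89 ± 0.23 with both. With CHIR99021 Slc51b read -1.21 ± 0.23 (adjusted p = 0.0802, 0.0254 blocked on line as replicate). The ferroxidase Heph fell by 0.40 ± 0.10 with VPA and by 0.67 ± 0.10 with both, and Atp1b3, a subunit of the sodium pump, rose by 0.70 ± 0.13 with both.

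Markers of the cell types in an organoid were read beside these results. Of the 4 epithelial genes, Krt8 fell by 0.75 ± 0.12 under CHIR99021, fell by 0.84 ± 0.12 under VPA and fell by 1.01 ± 0.12 with both. Krt18 fell by 0.64 ± 0.13 with VPA and fell by 0.71 ± 0.13 with both, Cdh1 rose by 0.51 ± 0.10 with both, and Epcam passed in none of the 3. The summed signal of the 4 was 18.24 and 18.18 in control, 18.01 and 18.00 under CHIR99021, 17.85 and 17.67 under VPA and 17.80 and 17.56 with both. Of 12 enterocyte markers tested, 3 fell under CHIR99021, 2 under VPA and 6 under both, and 0 rose, with medians of -1.83, -0.23 and -1.77. Past the threshold or not, all 12 read below 0 with CHIR99021 and with both, while with VPA 5 read above 0 and 7 below. Their summed Cy5 signal (log2) was 18.28 and 18.33 in control, 17.12 and 17.03 under CHIR99021, 18.74 and 18.68 under VPA and 16.54 and 17.16 with both. All 5 goblet markers fell with VPA and with the combination, with summed signals of 16.94 and 16.36 in control, 16.19 and 15.33 with VPA and 14.96 and 14.25 with both. Of 4 enteroendocrine markers 3 fell with VPA and 3 with both, with summed signals of 16.66 and 12.15 in control and 12.36 and 9.08 with both. Among 4 Paneth markers 1 fell with VPA and 2 with both, and among 3 tuft markers 1 fell with both. With CHIR99021 no Paneth marker passed, and 3 read above 0 and 1 below (median 0.70). None of 5 stem cell markers passed. With CHIR99021 all 5 read above 0, with VPA 3 and with both 4, with medians of 0.37, 0.06 and 0.41. Their summed signal was 13.48 and 13.46 in control, 13.91 and 14.03 under CHIR99021, 13.78 and 13.61 under VPA and 13.77 and 14.43 with both. Of 6 markers from outside the epithelium 4 were tested, and Col1a1 rose by 0.79 ± 0.14 with VPA and by 1.01 ± 0.14 with both. Col1a1 was well above background on 0 of the 2 control arrays, and Col3a1 and Pecam1 were not among the 4 tested. The summed signal of these 4 lay between 12.66 and 13.21 on all 8 arrays. The part that these markers' cells have in the changes of Slc genes was not tested.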

How the data were processed

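RNA of organoids was hybridised to two-colour Agilent arrays of 45018 spots, scanned and, per the file headers, quantified by Feature Extraction 10.5.1.1. The scanner files deposited by the authors hold spot intensity on a linear scale, with the software's log10 ratio of Cy5 over Cy3, and the deposited value table holds that ratio as log2, equal to the scanner files' ratio within 5e-10 on 19228 spots of each array, with column medians from -0.028 to 0.036. Here median signals were corrected by normexp (offset 50), with spots marked as outliers left out of that fit, normalised by loess within each array in limma 3.58.1 (R 4.3.3), and turned into log2 ratios of Cy5 over Cy3, computed here from the intensities the authors deposited. This handling of marked spots follows earlier processing of these data. With all spots in the fit, the noise estimate of CHIR99021 line 1 was an SD of 905 in Cy3 and 192 in Cy5, against 1.02 and 1.14.

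Gene names were matched by RefSeq accession, which named 27479 of 41174 probes, and 19269 genes were tested, 13987 of them with a symbol. One linear model over all 4 groups with moderated variances (4 residual and 2.67 prior degrees of freedom) gave each comparison, with Benjamini-Hochberg adjustment over all 19269 genes and a threshold of 0.05. The fit was checked on simulated data whose noise was independent between arrays, with the same spread in all groups. That check did not test arrays of a line that deviate together, or groups that differ in spread. Line, replicate number and slide are the same division. Same-numbered arrays deviated together in every pair of groups (correlations of deviations from the group means). These were 0.12 to 0.245 between control and a treatment, and 0.549 to 0.756 between treatments. Arrays of a line also share its control RNA in Cy3, so the correlations cannot show what pairs them. The labels' organoid line was used as a replicate block beside the unblocked fit.

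Members, lists and tests were chosen with earlier results of these data known. Named genes were a list of intestinal carriers, the largest changes past the threshold in both lines, members of small groups of calls, and partner genes. The other genes called against control (Slc30a4, Slc31a2, Slc17a4, Slc2a9, Slc30a7, Slc35a1, Slc35a3, Slc35g1, Slc39a13, Slc41a1, Slc4a2 and Slc6a7) were named after their values were seen. Of the members tested, 91 had more than 1 probe. Alternatives were the background fit on all spots, the software's ratio, median centring, treated ratios against 0, no filter on dim probes, the mean of a gene's probes, the replicate block, only the groups compared, and leaving out each array. Results of some single genes are not reported here, though the genes stay in the counts.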

Additional observations from a re-analysis of the deposited data

How the results depend on the processing

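With the background model fitted on all spots, the number of Slc genes called was 0 for CHIR99021 against control, 20 for VPA, 38 for both, 20 for both against CHIR99021 and 0 for both against VPA. With the software's ratio it was 4 for CHIR99021 against control and 3 for both against VPA. With treated ratios tested against 0 it was 68 (15 higher), 85 and 103 for CHIR99021, VPA and both. Blocking on the line as the replicate gave 26, 61, 80, 56 and 23 in the 5 comparisons in the same order. Of all genes, the block called 554, 3742, 4814, 3407 and 609, and the fit on all spots 0, 1509, 2412, 1629 and 28. The software's ratio called 36 of all genes for CHIR99021 against control and 34 for both against VPA. Ratios tested against 0 called 4302, 7021 and 7792 of all genes. The block ended no Slc call in these comparisons, and the calls it added number 57 among named genes. With only the groups compared, 1084 of all genes were called for CHIR99021 against control, 289 for both against CHIR99021 and 0 for both against VPA. The number of Slc genes called was 39, 3 and 0 in these comparisons. Leaving out each array gave 1 to 15 for CHIR99021 against control, 2 to 40 for VPA, 15 to 56 for both, 3 to 36 for both against CHIR99021 and 1 to 8 for both against VPA. Calls that held in every setting other than leaving out an array numbered 0 of 11, 10 of 32, 29 of 53, 3 of 31 and 0 of 10. With the probes of a gene averaged, Slc30a7 read 0.11 with both against control in place of -0.40, since its other 2 probes read 0.27 and 0.46. For the other changes of count the cause was not tested. The interaction had 0 calls in every setting in which it was fitted. Genes near background, such as Slc9a3 and Slc13a1 with both compounds, were not well above background on some arrays, and brush border carriers that were not well above background, such as Slc15a1, could not be compared.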

Other observations

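Some Slc genes read large values on single arrays without passing in any comparison with control, and were named after their values were seen. Slc47a1, a carrier that exports organic cations, read -0.01 and -0.11 in control, -1.90 and -1.08 under CHIR99021, 1.17 and 2.47 under VPA and -1.58 and -0.20 under both, so the compounds' arrays lay on opposite sides of control. Its change with VPA was 1.88 ± 0.57 (adjusted p = 0.089). Slc14a1, a urea carrier, read 0.02 and 0.25 in control, 0.95 and 1.92 under CHIR99021, -0.06 and 0.24 under VPA and 0.48 and 1.99 with both, which put it high on the 4 arrays with CHIR99021. Its change with CHIR99021 was 1.30 ± 0.51 (adjusted p = 0.352). Slc46a3, a carrier of lysosomes, changed by -1.18 ± 0.21 with CHIR99021 (adjusted p = 0.06).

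A few carriers read further from 0 in line 1 than in line 2. The large neutral amino acid carrier Slc43a1 read 2.11 and 0.62 with VPA and 1.77 and 0.42 with both, and the potassium chloride carrier Slc12a4 read 1.31 and 0.27 with VPA and 2.00 and 0.40 with both. Slc6a20b, a relative of the intestinal proline carrier, read -1.79 and -0.12 under CHIR99021, -1.59 and -0.24 under VPA and -1.85 and -0.12 with both. These genes passed in no comparison with control. Values for 2 lines do not show which of them is usual.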
